A study of Mus musculus with 6 samples.

Results

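The genes described here are 10 members of the immunoglobulin-type receptor families of mouse myeloid cells: the inhibitory receptors Sirpa, Pirb, Cd300a, Cd300lf and Siglece, the sialic acid receptor Siglec1, the activating receptors Cd300lb, Trem1 and Trem2, and their shared adaptor Tyrobp. They were chosen by name, with earlier results of these data known, and all 10 were found among the 23398 genes of the deposited table. RNA came from cultured mouse bone marrow-derived dendritic cells (BMDC) given either vehicle (3 libraries) or Ca(OH)2 nanoparticles (3 libraries) for 12 hours. Both groups were kept in the same serum-containing medium with penicillin and streptomycin, so the particles are the single labelled difference. The labels used here give no mouse strain, age or sex, no particle dose, no growth factor, and no statement that replicates came from separate cultures or animals, so p-values measure the spread between these libraries, which may be technical.

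Paired receptors are families in which closely related members carry opposite signals. Inhibitory members hold tyrosine motifs (ITIMs) in their cytoplasmic tails that recruit the phosphatases SHP-1 (Ptpn6), SHP-2 (Ptpn11) or SHIP-1 (Inpp5d), whereas activating members have short tails and signal through adaptors with activating motifs (ITAMs), above all DAP12, the product of Tyrobp, which recruits the kinase Syk. On dendritic cells and macrophages these receptors read host molecules such as CD47, MHC class I, sialic acids and membrane phospholipids, and they set how strongly a cell responds to other stimuli.

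Expression is given in FPKM (fragments per kilobase of gene length, on the deposited scale of each library), a unit that allows levels of different genes to be compared. Whole reads recovered from these values came to 17327042 to 22012346 per library, and the 10 genes rested on 28 to 21497 reads in a library. The deposited scale does not follow these totals. Recovered reads over the library size implied by the scale were 0.874 to 0.891 in vehicle and 1.09 to 1.14 with nanoparticles. Nanoparticle library 1 stood apart: its distance to the mean of its group, itself left out, exceeded 2-fold for 11.8% of tested genes, compared with 0.337% to 3.15% for each of the other 5 libraries, and results that rest on it are given with and without it. The labelled cell type was checked on marker genes. The dendritic cell integrin Itgax was at 449 ± 7.16 FPKM in vehicle and the transcription factor Zbtb46 at 3.97 ± 0.268 FPKM (SD, n = 3 each), while the progenitor receptor Flt3 was at 0, 0 and 0.00776 FPKM. Macrophage genes were abundant too, with C1qb at 283 ± 37.0 and Csf1r at 158 ± 0.390 FPKM in vehicle (SD, n = 3 each). Marker lists of T, B and NK cells summed to at most 0.935 FPKM in any library.

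Nanoparticle-treated and vehicle libraries were compared with limma on log2(FPKM + 1) over the 10682 genes that reached 1 FPKM in 3 or more libraries, and a gene was called at a Benjamini-Hochberg adjusted p under 0.05. All 10 receptor and adaptor genes passed the filter, and 4 were called. Pirb and Siglece rose, and Cd300a and Cd300lb fell. The share of called genes among all tested genes was 33.2% (17.0% higher, 16.2% lower), so a count of 4 in 10 lies near that of the transcriptome. The groups did not overlap in 7 of the 10, against 52.1% of all tested genes. The median log2 change of the 10 was -0.03, and that of all tested genes was 0.00. Without nanoparticle library 1, 7 of the 10 were called (Sirpa, Trem1 and Tyrobp in addition), against 64.8% of all tested genes. Without vehicle library 1, 2 or 3, or nanoparticle library 2, the call of Cd300lb was lost and 3 remained. In these fits 20.8%, 20.5%, 20.04% and 26.3% of all tested genes were called. These directions are relative to the deposited scaling between libraries. Scaling by total reads moved the median of all genes to -0.28 and gave 1 higher and 3 lower of the 10 genes in place of 2 and 2 (44.1% of all tested genes called). An equal sum of FPKM in every library moved it to -0.38 and gave 1 higher and 4 lower (48.6% of all tested genes called).

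**Figure D1:**
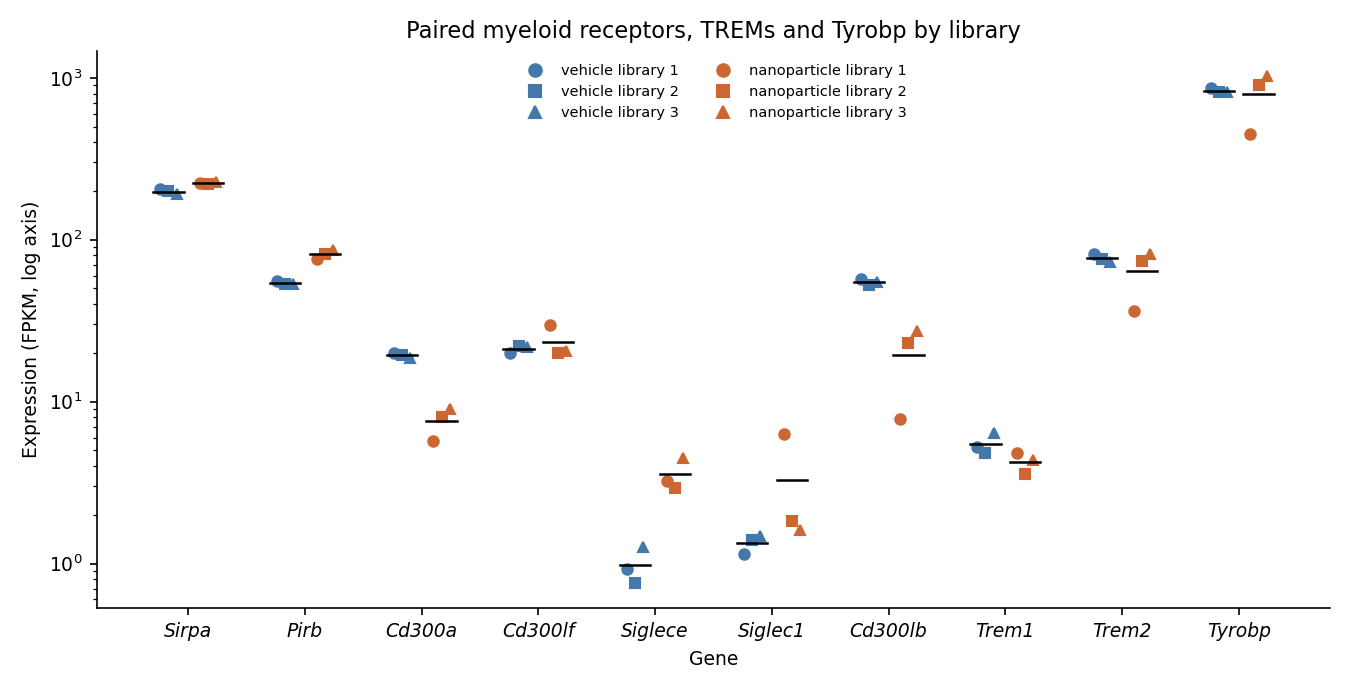
Expression of the 10 genes in FPKM (log axis) in each of the 6 libraries, blue for vehicle and orange for nanoparticle, with the marker shape giving the library number and the black line the group mean. Nanoparticle library 1 (orange circle) was the lowest of all libraries for Cd300a, Cd300lb, Trem2 and Tyrobp and the highest for Cd300lf and Siglec1, while for Sirpa and Pirb the 3 nanoparticle libraries lay close together.

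Among the inhibitory receptors, Sirpa was the most abundant. SIRPα, its product, binds CD47 on other cells and restrains their uptake. Sirpa (ENSMUSG00000037902, chromosome 2, 129592835 to 129632228, plus strand; all positions are those of GENCODE M21 on GRCm38) was at 206, 199 and 191 FPKM in vehicle libraries 1 to 3 and at 225, 221 and 227 FPKM in nanoparticle libraries 1 to 3. Every nanoparticle library lay above every vehicle library, by a small margin. The means were 199 ± 7.57 and 224 ± 2.89 FPKM (SD, n = 3 each), and the log2 change of 0.18 (SE 0.11) was not past the threshold (adjusted p = 0.269 in limma). It passed without nanoparticle library 1 (log2 change 0.18, adjusted p = 0.0258 in limma). On the scale of total reads its sign turned (log2 change -0.17, adjusted p = 0.246 in limma), as it did with an equal sum of FPKM (-0.29, adjusted p = 0.0781 in limma).

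Pirb rose. Its product PIR-B binds MHC class I on the same or neighbouring cells and carries ITIMs. Pirb (ENSMUSG00000058818, chromosome 7, 3711409 to 3720391, minus strand) was at 55.3, 53.4 and 53.3 FPKM in vehicle and at 75.9, 82.1 and 86.5 FPKM with nanoparticles, the groups well apart and library 1 the lowest of its group. The means were 54.0 ± 1.10 and 81.5 ± 5.33 FPKM (SD, n = 3 each), a 1.51-fold difference and a log2 change of 0.58 (SE 0.10, adjusted p = 0.0066 in limma). The rise was not past the threshold with scaling by total reads (log2 change 0.24, adjusted p = 0.0821 in limma) or with an equal sum of FPKM (0.12, adjusted p = 0.304 in limma). Pirb has closely similar activating copies, the Pira genes, and how reads shared with them were counted is not given in the sources used here, so its level is uncertain to that extent. Of the 8 Pira genes looked for, Pira2 was found in the table, at 6.52, 7.04 and 6.50 FPKM in vehicle and 10.95, 5.95 and 4.54 FPKM with nanoparticles, groups that overlap (log2 change 0.01, adjusted p = 0.986 in limma).

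Siglece showed the largest fold rise of the 4 called genes, from a low level. Siglec-E is an ITIM-bearing receptor of sialic acids on neutrophils, macrophages and dendritic cells. Siglece (ENSMUSG00000030474, chromosome 7, 43651070 to 43660161, minus strand) was at 0.923, 0.764 and 1.27 FPKM in vehicle, resting on 34, 28 and 49 reads, and at 3.25, 2.94 and 4.52 FPKM with nanoparticles, resting on 98, 90 and 161 reads. The lowest nanoparticle library was above the highest vehicle library, and nanoparticle library 1 lay between libraries 2 and 3. The means were 0.985 ± 0.258 and 3.57 ± 0.837 FPKM (SD, n = 3 each), 3.62-fold apart, with a log2 change of 1.19 (SE 0.17, adjusted p = 0.0027 in limma) on a scale that understates the change of low genes. Siglece passed the filter of 1 FPKM in 3 libraries only through the nanoparticle libraries, so being tested and rising were tied. It was called in each of the 13 alternatives that tested it, at an adjusted p of 0.0010 to 0.0179. With no filter the adjusted p was 0.0106 (limma), and a filter of 5 FPKM left the gene out.

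Promoters of Pirb and Siglece are shown because these are the called genes that rose. They run from 250 bases before to 50 bases after the start of the RefSeq gene on GRCm38.p6 (chr7:3720333-3720632 for Pirb and chr7:43660112-43660411 for Siglece, both on the minus strand), 5′ to 3′. Capitals mark matches on either strand to GAGGAA, a core that the myeloid transcription factor PU.1 binds.
Pirb: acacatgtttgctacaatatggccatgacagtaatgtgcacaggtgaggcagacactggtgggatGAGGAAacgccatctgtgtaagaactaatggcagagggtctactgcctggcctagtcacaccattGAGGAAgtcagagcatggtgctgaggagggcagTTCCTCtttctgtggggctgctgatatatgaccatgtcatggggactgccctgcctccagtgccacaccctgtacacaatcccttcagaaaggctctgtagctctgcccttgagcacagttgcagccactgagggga
Siglece: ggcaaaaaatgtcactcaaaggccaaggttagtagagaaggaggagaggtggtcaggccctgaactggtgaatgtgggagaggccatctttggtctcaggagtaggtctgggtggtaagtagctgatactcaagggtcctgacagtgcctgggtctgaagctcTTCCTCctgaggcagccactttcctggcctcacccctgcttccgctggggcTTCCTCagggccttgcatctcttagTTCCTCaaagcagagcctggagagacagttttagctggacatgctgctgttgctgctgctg
Each held 3 matches, from -185 to -180, -120 to -115 and -87 to -82 in Pirb and from -87 to -82, -36 to -31 and -11 to -6 in Siglece, counted from the start site. Promoter sequences were found for 7 of the 10 genes (not for Sirpa, Siglec1 and Tyrobp). GAGGAA was in 6 of these 7, where 28.3% of 32851 mouse promoters of this length hold it. A match describes the letters and does not show a site in use.

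The CD300 family gave the 2 decreases. CD300 receptors bind phospholipids that dying cells expose and lie in a gene cluster on chromosome 11. Cd300a, an inhibitory member that binds phosphatidylserine and phosphatidylethanolamine (ENSMUSG00000034652, chromosome 11, 114890041 to 114904654, plus strand), was at 19.9, 19.5 and 18.7 FPKM in vehicle and at 5.71, 8.09 and 8.98 FPKM with nanoparticles. The groups were far apart, and library 1 was the lowest of the 6. The means of 19.4 ± 0.645 and 7.59 ± 1.69 FPKM (SD, n = 3 each) differed 2.55-fold, a log2 change of -1.26 (SE 0.16, adjusted p = 0.0019 in limma). It was called in all 14 alternatives, at an adjusted p of at most 0.0142.

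Cd300lb encodes an activating member that signals through DAP12 (ENSMUSG00000063193, chromosome 11, 114922781 to 114934386, minus strand). It was at 57.6, 52.3 and 55.0 FPKM in vehicle and at 7.77, 23.1 and 27.4 FPKM with nanoparticles. All nanoparticle libraries were below all vehicle libraries, and library 1 was 3.25-fold below the mean of nanoparticle libraries 2 and 3. The means were 54.9 ± 2.65 and 19.4 ± 10.3 FPKM (SD, n = 3 each), 2.83-fold apart, with a log2 change of -1.62 (SE 0.43, adjusted p = 0.0303 in limma). Without nanoparticle library 1 the change was smaller, at -1.09, and its adjusted p was lower, at 7.6e-05 (limma). The call was lost with no filter on low values (adjusted p = 0.0720 in limma) and without vehicle library 1, 2 or 3 (adjusted p = 0.0976, 0.0869 and 0.0926 in limma) or nanoparticle library 2 (0.0511), while the log2 change stayed between -1.82 and -1.59 in these fits.

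Cd300lf, whose product has ITIMs and also binds phosphatidylserine and ceramide (ENSMUSG00000047798, chromosome 11, 115116214 to 115133992, minus strand), was at 19.96, 22.2 and 21.7 FPKM in vehicle and at 29.5, 19.8 and 20.4 FPKM with nanoparticles. Library 1 lay above every other library, and nanoparticle libraries 2 and 3 lay around the lowest vehicle library. The means were 21.3 ± 1.17 and 23.3 ± 5.45 FPKM (SD, n = 3 each), and the log2 change of 0.10 (SE 0.17) was not past the threshold (adjusted p = 0.684 in limma). Its sign turned without nanoparticle library 1 (log2 change -0.08, adjusted p = 0.342 in limma), with scaling by total reads (-0.23, adjusted p = 0.342 in limma) and with an equal sum of FPKM (-0.35, adjusted p = 0.233 in limma). The gene lies across Rab37 on the opposite strand, with 0 exonic bases shared.

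Promoters of the neighbouring genes Cd300a and Cd300lb, the genes that fell, are chr11:114889791-114890090 on the plus strand and chr11:114934322-114934621 on the minus strand (RefSeq, GRCm38.p6), with matches to any of 4 searched motifs in capitals.
Cd300a: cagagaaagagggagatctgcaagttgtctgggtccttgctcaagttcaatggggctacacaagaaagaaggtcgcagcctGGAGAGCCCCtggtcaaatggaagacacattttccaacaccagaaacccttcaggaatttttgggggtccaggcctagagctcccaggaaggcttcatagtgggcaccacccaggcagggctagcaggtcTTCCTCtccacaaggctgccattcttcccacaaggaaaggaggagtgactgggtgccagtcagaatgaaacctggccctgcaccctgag
Cd300lb: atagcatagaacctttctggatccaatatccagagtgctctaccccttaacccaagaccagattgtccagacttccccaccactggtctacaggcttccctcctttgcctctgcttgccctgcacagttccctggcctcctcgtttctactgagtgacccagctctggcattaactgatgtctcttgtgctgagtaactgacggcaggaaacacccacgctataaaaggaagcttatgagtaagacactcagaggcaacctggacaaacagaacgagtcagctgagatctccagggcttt
Both strands were searched for GAGGAA, for TGANTCA (AP-1), for the interferon-stimulated response element (ISRE) and for the kappaB motif of NF-kappaB, and no match overlapped a match of another motif. The Cd300a window held a kappaB match from -169 to -160, a motif found in 8.46% of all promoters, and a GAGGAA match from -39 to -34. The Cd300lb window held no match. TGANTCA was in 1 of the 7 promoters (Trem2, from -9 to -3) and in 7.81% of all, and the ISRE in 0 of the 7 and in 3.44% of all.

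The decrease was not limited to these genes of the CD300 cluster, which spans 114890041 to 115133992 on chromosome 11 and holds 11 annotated genes. Of its 8 tested genes, 5 were called lower and 0 higher, where 16.2% of all tested genes were called lower. Cd300e, an activating DAP12-coupled receptor of monocytes, was at 13.5, 12.7 and 11.2 FPKM in vehicle and 0.851, 1.71 and 1.39 FPKM with nanoparticles (log2 change -2.55, SE 0.16, adjusted p = 1.7e-04 in limma). Cd300ld was at 78.8, 74.9 and 74.9 FPKM in vehicle and 15.7, 43.7 and 43.4 FPKM with nanoparticles (log2 change -1.26, SE 0.39, adjusted p = 0.0476 in limma). For Cd300ld the change was -0.79 without nanoparticle library 1 (adjusted p = 3.5e-05 in limma). Its call was lost without vehicle library 1, 2 or 3 (0.125 to 0.135) or nanoparticle library 2 (0.0539). It was also lost with a pseudocount of 0.1 (0.0507), with no filter (0.104) and with a replicate block (0.0533). Cd300ld3 also fell (log2 change -1.35, adjusted p = 0.0382 in limma), a call lost without vehicle library 2 or 3 or nanoparticle library 2 or 3 (0.0558 to 0.125). The call of Cd300ld3 was also lost with a pseudocount of 0.1 (0.0945), with no filter (0.0930), with a replicate block (0.0686) and with limma-voom (0.0835). It has near-identical copies, Cd300ld4 and Cd300ld5, and is uncertain for that reason too. Cd300c2, the most abundant gene of the cluster, was at 232, 218 and 215 FPKM in vehicle and 155, 315 and 370.2 FPKM with nanoparticles (log2 change 0.25, adjusted p = 0.607 in limma), with a negative sign under either alternative scaling (-0.10 and -0.22), and without library 1 it was called higher (0.62, adjusted p = 6.7e-04 in limma). Summed over the 11 genes, the cluster was at 426, 405 and 403 FPKM in vehicle and 216, 413 and 474 FPKM with nanoparticles. On the same deposited scale, all genes together summed to 321728 to 328384 FPKM in vehicle and 400186 to 491404 FPKM with nanoparticles. The count of 5 lower was 6 with either alternative scaling and 3 with a pseudocount of 0.1 or with a replicate block. It was 3 without vehicle library 1, and 2 without vehicle library 2 or 3 or without nanoparticle library 2. Over the 10682 tested genes, the number called lower was 1733, and 3604 and 4307 with scaling by total reads and an equal sum of FPKM. It was 1655 with a pseudocount of 0.1 and 1334 with a replicate block. It was 1074, 1057 and 1027 without vehicle libraries 1, 2 and 3, and 1383 without nanoparticle library 2. With no filter, 2 of the 11 cluster genes and 1746 of 23398 genes were called lower. In that fit 14.45% of all genes were called in either direction, against 33.2% with the filter. Cd300c, Cd300ld, Cd300ld3 and Cd300e were looked at because of their place in the cluster, after the values of Cd300a and Cd300lb were known.

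**Figure D2:**
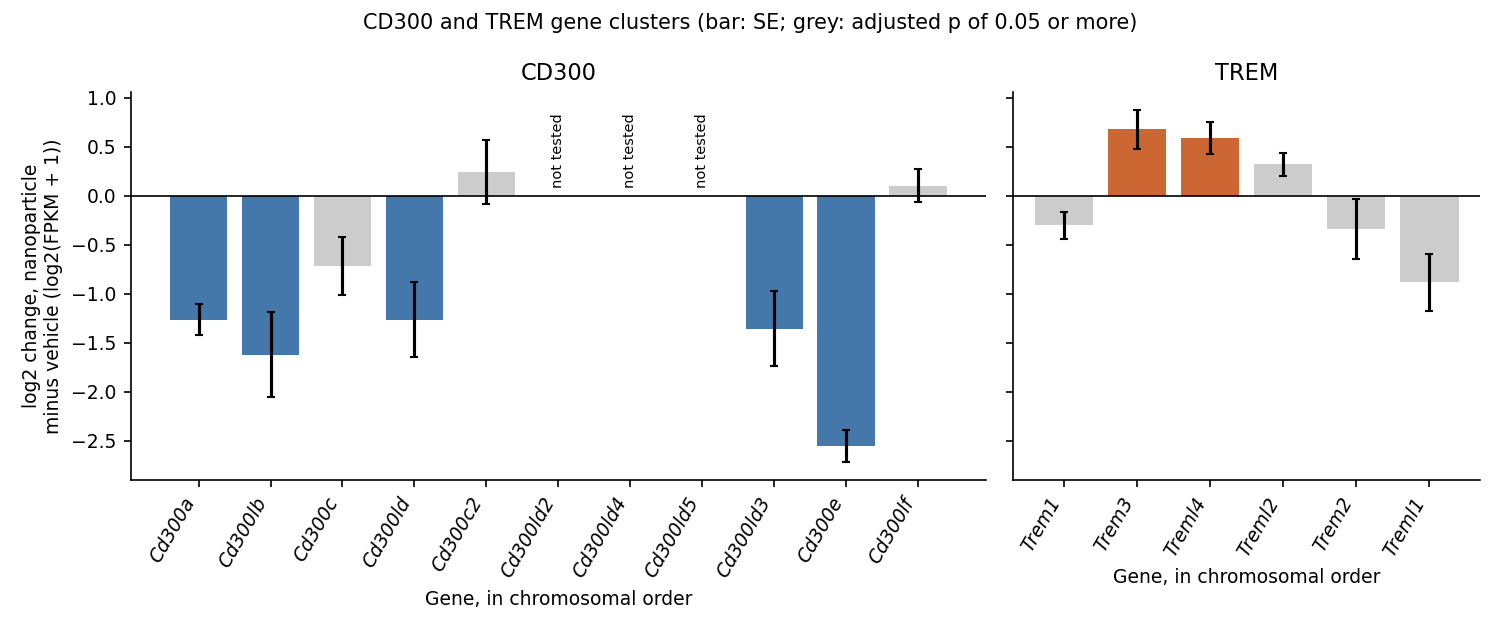
Log2 change on the log2(FPKM + 1) scale (nanoparticle minus vehicle) of each gene of the CD300 and TREM clusters in chromosomal order, with the standard error as a thin bar and grey for genes not past an adjusted p of 0.05. In the CD300 cluster 5 of 8 tested genes were lower and 3 were not tested for low values, while in the TREM cluster 2 of 6 were higher, neither of them Trem1 or Trem2. Those 2, Trem3 and Treml4, passed the filter only through the nanoparticle libraries.

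Of the activating TREM receptors, Trem1, which amplifies inflammatory responses through DAP12, was scarce, and Trem2, a lipid receptor tied to phagocytosis and to restraint of cytokine output, was abundant. Trem1 (ENSMUSG00000042265, chromosome 17, 48232768 to 48246924, plus strand) was at 5.23, 4.83 and 6.36 FPKM in vehicle and at 4.80, 3.57 and 4.38 FPKM with nanoparticles. The highest nanoparticle library lay just below the lowest vehicle library. The means of 5.47 ± 0.794 and 4.25 ± 0.627 FPKM (SD, n = 3 each) gave a log2 change of -0.30 (SE 0.14), not past the threshold (adjusted p = 0.150 in limma). It was called lower without nanoparticle library 1 (log2 change -0.38, adjusted p = 0.0356 in limma), with scaling by total reads (-0.59, adjusted p = 0.0178 in limma) and with an equal sum of FPKM (-0.69, adjusted p = 0.0170 in limma). Neutrophils are another source of Trem1. Of the 12 neutrophil markers listed, 4 were tested and 3 of them rose (S100a8, Lcn2 and Csf3r). Lcn2 and Csf3r passed the filter only through the nanoparticle libraries, so being tested and rising were tied. With no filter, 2 of the 12 were called higher and 1 lower. Cxcr2, below the filter, was at 0.395, 0.761 and 0.801 FPKM in vehicle and 0.0201, 0.139 and 0 FPKM with nanoparticles. The list summed to 35.8 to 39.5 FPKM in vehicle and 108 to 178 FPKM with nanoparticles, while Ly6g, Mpo, Elane and Prtn3 stayed at or below 0.307 FPKM in every library. The part of such cells in the Trem1 level was not tested.

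Trem2 (ENSMUSG00000023992, chromosome 17, 48346401 to 48354147, plus strand) was at 81.7, 75.6 and 73.0 FPKM in vehicle and at 36.1, 74.1 and 81.7 FPKM with nanoparticles. Nanoparticle libraries 2 and 3 lay within or at the edge of the vehicle range, and library 1 was 2.16-fold below their mean. The means were 76.8 ± 4.43 and 64.0 ± 24.4 FPKM (SD, n = 3 each), with a log2 change of -0.34 (SE 0.31, adjusted p = 0.440 in limma). Without nanoparticle library 1 the log2 change was 0.02 (adjusted p = 0.815 in limma), and with an equal sum of FPKM it was -0.81 and past the threshold (adjusted p = 0.0306 in limma). Elsewhere in the TREM cluster (chromosome 17, 48232768 to 48367176, 6 genes, all tested), Trem3 and Treml4 were called higher from levels below 1 FPKM (log2 changes 0.68 and 0.59, adjusted p = 0.0417 and 0.0351 in limma). Both reached 1 FPKM in nanoparticle libraries only, so they passed the filter through the group where they were high. Neither call held with no filter (adjusted p = 0.104 and 0.0887 in limma) or with limma-voom (0.0646 and 0.0515). Neither was called with either alternative scaling, where 0 genes of the cluster were called higher and 2 or 3 lower, nor without vehicle library 1, 2 or 3 or nanoparticle library 2. Without nanoparticle library 1, 4 of the 6 were called, 2 in each direction (64.8% of all tested genes called). Without nanoparticle library 3, Treml4 was called higher and Treml1 lower (30.4% of all tested genes called).

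Tyrobp was the most abundant of the 10 genes, at the 99.6th percentile of tested genes in vehicle. It (ENSMUSG00000030579, chromosome 7, 30413760 to 30417585, plus strand) was at 860.5, 817 and 815 FPKM in vehicle and at 449, 902 and 1025 FPKM with nanoparticles. Libraries 2 and 3 lay above the vehicle libraries and library 1 lay far below them, 2.15-fold under the mean of libraries 2 and 3. The means of 831 ± 25.6 and 792 ± 303 FPKM (SD, n = 3 each) did not differ past the threshold (log2 change -0.15, SE 0.32, adjusted p = 0.749 in limma). Without nanoparticle library 1 the sign turned and the gene was called higher (log2 change 0.21, adjusted p = 0.0350 in limma). In bulk RNA, fewer cells of a type and less RNA per cell cannot be told apart, for this gene or the others.

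Siglec1, or CD169, is a large sialic acid receptor without ITIMs, known as an interferon-induced marker of monocytes and macrophages. Siglec1 (ENSMUSG00000027322, chromosome 2, 131069220 to 131086765, minus strand) was at 1.15, 1.39 and 1.48 FPKM in vehicle (163, 197 and 220 reads) and at 6.34, 1.84 and 1.61 FPKM with nanoparticles (740, 217 and 221 reads). Library 1 was 3.69-fold above the mean of libraries 2 and 3, which lay just above the vehicle range. The log2 change was 0.70 (SE 0.39, adjusted p = 0.225 in limma), and 0.22 without library 1 (adjusted p = 0.104 in limma), with neither past the threshold.

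**Figure D3:**
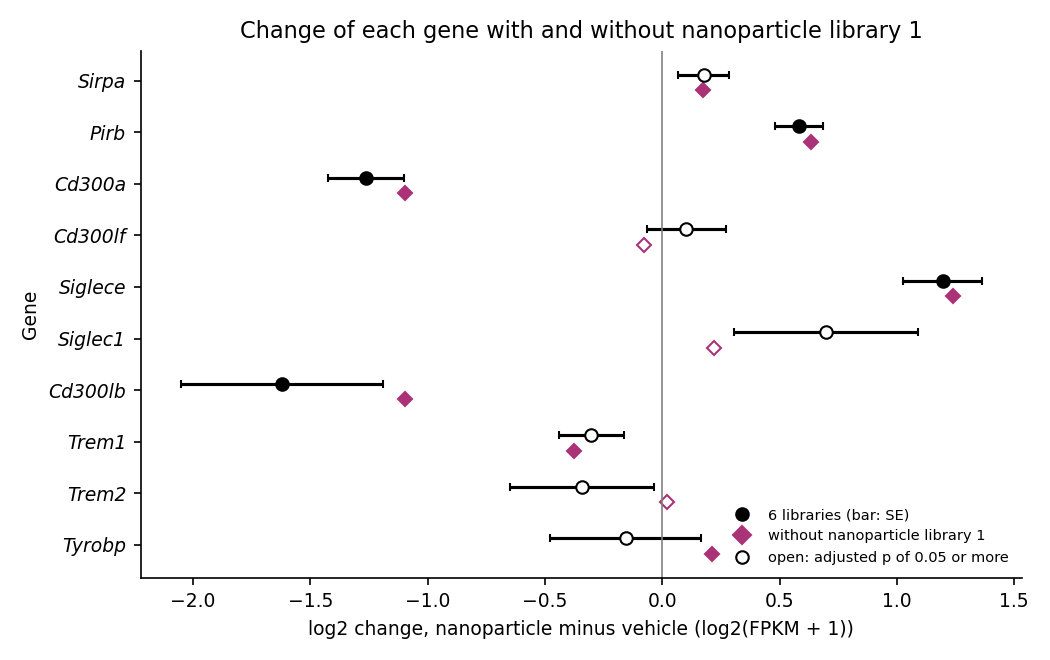
Log2 change of each of the 10 genes on the log2(FPKM + 1) scale with all 6 libraries (circles, with the standard error) and without nanoparticle library 1 (diamonds), filled where the adjusted p was under 0.05. Leaving out library 1 moved Cd300lb from -1.62 to -1.09 and Siglec1 from 0.70 to 0.22, and carried Trem2 and Tyrobp across 0.

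The spread among treated libraries differed widely between the genes. The coefficient of variation (SD as a percent of the mean) was 2.03% to 26.2% in vehicle and 1.29% to 81.9% with nanoparticles, where Sirpa was lowest and Siglec1 highest. In 8 of the 10 genes library 1 lay outside the range of libraries 2 and 3, and in 4 of them (Siglec1, Cd300lb, Tyrobp and Trem2) by more than 2-fold. Of these 8, it lay below libraries 2 and 3 for Tyrobp, Trem2, Cd300lb, Cd300a and Pirb and above them for Siglec1, Cd300lf and Trem1.

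In order of level, vehicle libraries held Tyrobp, Sirpa, Trem2, Cd300lb, Pirb, Cd300lf, Cd300a, Trem1, Siglec1 and Siglece. The neighbours Cd300lb and Pirb, and Siglec1 and Siglece, overlapped between libraries, and the others did not. With nanoparticles the order was Tyrobp, Sirpa, Pirb, Trem2, Cd300lf, Cd300lb, Cd300a, Trem1, Siglece and Siglec1. There, Pirb and Trem2, Cd300lf and Cd300lb, Cd300lb and Cd300a, Trem1 and Siglece, and Siglece and Siglec1 overlapped. Cd300lb and Pirb, level in vehicle at 54.9 and 54.0 FPKM, thus stood at 19.4 and 81.5 FPKM after treatment.

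Ratios between genes of the same library do not depend on the scaling between libraries, apart from the added 1. Of 5 ratios compared with an exact two-sided permutation test, which cannot give a p below 0.1 with 3 libraries against 3, 2 separated the groups. Pirb per Sirpa was 0.268, 0.268 and 0.279 in vehicle and 0.338, 0.371 and 0.381 with nanoparticles, higher in all treated libraries (log2 difference 0.41, exact permutation p = 0.1, Benjamini-Hochberg adjusted p = 0.25). Cd300lb per Cd300lf, an activating against an inhibitory member of the same cluster, was 2.88, 2.35 and 2.54 in vehicle and 0.263, 1.16 and 1.34 with nanoparticles (log2 difference -1.72, exact permutation p = 0.1, adjusted p = 0.25), and -1.02 without nanoparticle library 1. Cd300lb per Cd300a was 2.89, 2.68 and 2.94 in vehicle and 1.36, 2.86 and 3.05 with nanoparticles, groups that overlap (log2 difference -0.36, exact permutation p = 0.7). Trem1 per Trem2 (log2 difference 0.04, exact permutation p = 1) and Siglec1 per Siglece (-0.50, exact permutation p = 0.5) overlapped as well.

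For the receptors and their binding partners, 3 ratios were chosen after the values were seen. Trem2 per Tyrobp was 0.0949, 0.0926 and 0.0896 in vehicle and 0.0805, 0.0821 and 0.0797 with nanoparticles. Here library 1 lay between libraries 2 and 3, although it held the lowest level of each gene (log2 difference -0.19, exact permutation p = 0.1). Cd300lb per Tyrobp was 0.0669, 0.0640 and 0.0674 in vehicle and 0.0173, 0.0256 and 0.0268 with nanoparticles (log2 difference -1.47, exact permutation p = 0.1). Sirpa per Cd47, the receptor and its ligand, was 14.6, 14.0 and 13.6 in vehicle and 4.21, 5.40 and 5.37 with nanoparticles (log2 difference -1.44, exact permutation p = 0.1).

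**Figure D4:**
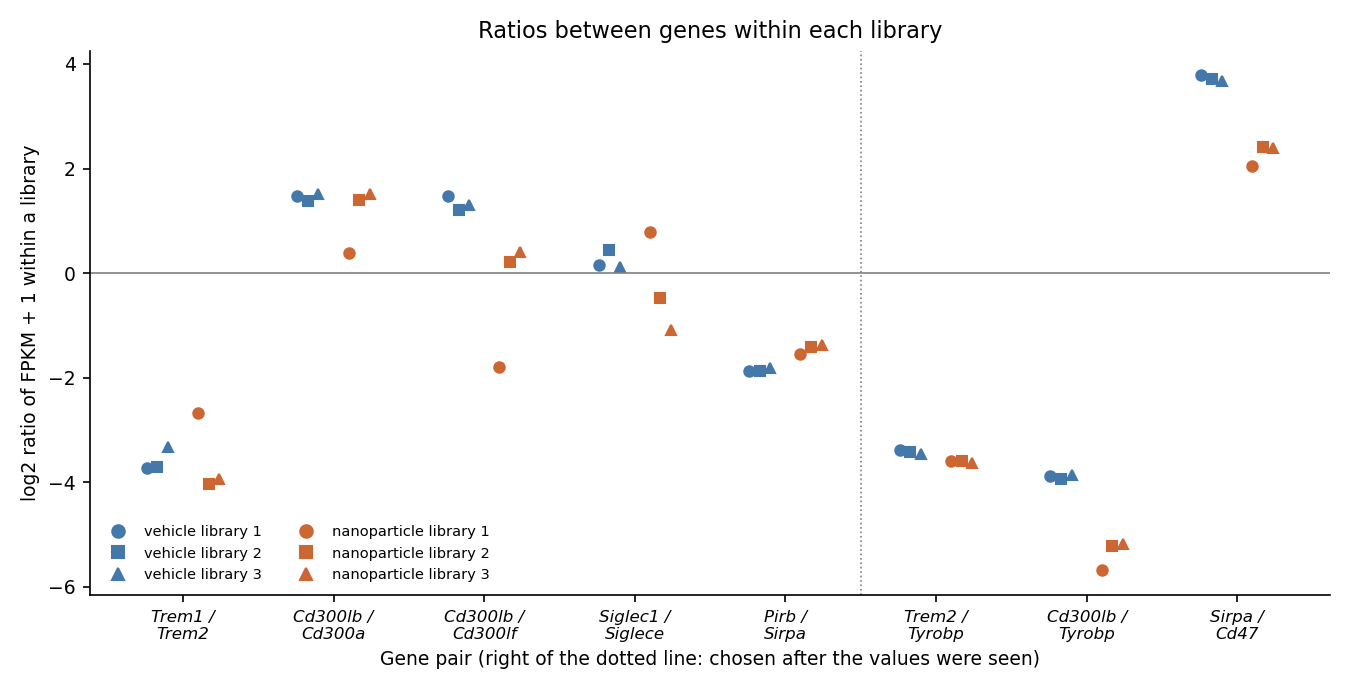
Log2 ratio of FPKM + 1 between 2 genes within each library, for 5 chosen ratios and, right of the dotted line, 3 ratios chosen after the values were seen (blue vehicle, orange nanoparticle, shape for the library number). The groups are apart for Cd300lb over Cd300lf, Pirb over Sirpa and the 3 ratios on the right, and for Trem2 over Tyrobp the 3 nanoparticle libraries lie together, between -3.63 and -3.59.

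The genes around the receptors were followed in 6 lists of 110 genes, of which 101 were in the table, 87 were tested and 49 (56.3%) were called, 28 higher and 21 lower, against 33.2% of all tested genes. The lists were chosen with earlier results of these data known, so their higher share is not a test. With a filter of 5 FPKM, 38.6% of all tested genes and 43 list genes were called. By list, the calls at that filter were 5 of 10 tested inhibitory receptors, 7 of 12 activating receptors and 16 of 21 adaptors and kinases. They were 2 of 9 in the phosphatase and Dok list, 7 of 8 ligands and sheddases and 6 of 12 sialic acid genes. With scaling by total reads the split of the list genes was 15 higher and 35 lower, and with an equal sum of FPKM 11 and 41. Over all tested genes the split was 1817 higher and 1733 lower as deposited, 1109 and 3604 with total reads, and 881 and 4307 with an equal sum. The count was 27, 27 and 28 without vehicle libraries 1, 2 and 3, 30 without nanoparticle library 2 and 74 without nanoparticle library 1, and the share of all tested genes called moved in the same direction in these fits, to 20.8%, 20.5%, 20.04%, 26.3% and 64.8%.

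Among 13 tested further inhibitory receptors, 3 rose, 4 fell and 6 were not called, with a median log2 change of -0.43 (2 and 6 with either alternative scaling). Without nanoparticle library 1, 3 of the 13 were higher and 8 lower, in a fit that called 64.8% of all tested genes. Vsir, which encodes the T cell inhibitor VISTA, was at 57.3, 49.9 and 46.8 FPKM in vehicle and 5.77, 10.6 and 10.7 FPKM with nanoparticles (log2 change -2.42, SE 0.24, adjusted p = 7.1e-04 in limma). Ceacam1, an ITIM-bearing adhesion receptor, fell as well (log2 change -1.05, SE 0.11, adjusted p = 8.4e-04 in limma). Fcgr2b, the inhibitory Fcγ receptor, was at 19.5, 22.4 and 21.7 FPKM in vehicle and 36.2, 41.6 and 43.1 FPKM with nanoparticles, a rise (log2 change 0.89, adjusted p = 0.0020 in limma). Among 21 tested activating receptors 6 rose, 5 fell and 10 were not called (median 0.03), with 2 higher and 8 lower, or 3 and 8, under the alternative scalings. The 6 that rose include Trem3 and Treml4, which passed the filter only through the nanoparticle libraries. The 11 calls became 5, 4 and 5 without vehicle libraries 1, 2 and 3 and 5 without nanoparticle library 2. Pilrb1 and Pilrb2, near-copies that encode DAP12-coupled partners of the inhibitory receptor PILRα, rose from 8.32 ± 0.830 to 25.1 ± 2.00 FPKM and from 6.34 ± 0.477 to 16.6 ± 1.08 FPKM (SD, n = 3 each, adjusted p = 3.1e-04 and 3.6e-04 in limma). Their inhibitory counterpart Pilra, named here after its values were seen, rose too (log2 change 0.76, adjusted p = 0.0067 in limma).

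**Figure D5:**
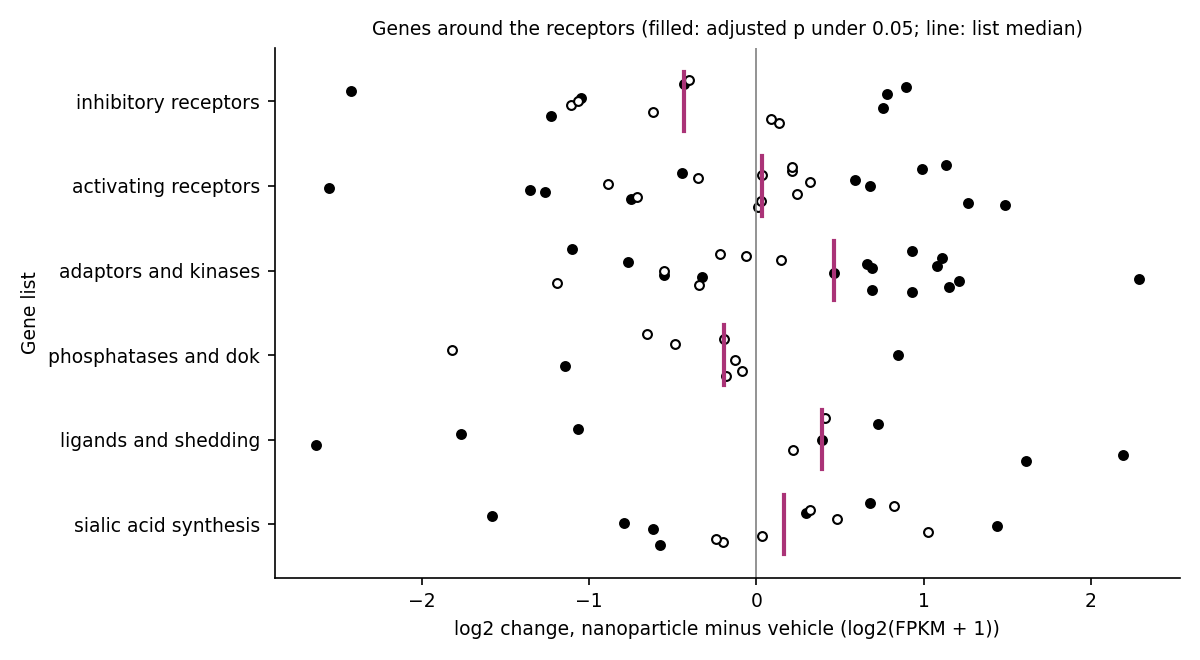
Log2 change on the log2(FPKM + 1) scale of each tested gene in the 6 lists around the receptors, filled where the adjusted p was under 0.05, with the list median as a vertical line. The phosphatases and dok list also holds Csk and Ptprc. Adaptors and kinases have the highest median (0.46) and inhibitory receptors the lowest (-0.43), and every list has genes on each side of 0.

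Adaptors and kinases downstream of the activating receptors held 11 higher and 4 lower genes of 21 tested (median log2 change 0.46), but 6 and 8 with scaling by total reads and 4 and 10 with an equal sum of FPKM. Fcer1g, the ITAM adaptor FcRγ used by Fc receptors and PIR-A, was at 463, 475 and 468 FPKM in vehicle and 834, 903 and 954 FPKM with nanoparticles, high in library 1 as in the others (log2 change 0.93, SE 0.13, adjusted p = 0.0030 in limma). Hcst, the adaptor DAP10, rose from 7.52 ± 0.122 to 12.98 ± 3.18 FPKM (SD, n = 3 each, adjusted p = 0.0231 in limma), a call lost without vehicle library 1, 2 or 3 or nanoparticle library 2 (adjusted p = 0.0649 to 0.0863 in limma) and with either alternative scaling (0.0953 and 0.122). Syk was at 37.5, 37.1 and 37.2 FPKM in vehicle and 111, 77.9 and 68.9 FPKM with nanoparticles (log2 change 1.15, SE 0.19, adjusted p = 0.0046 in limma, and 0.0551 with an equal sum of FPKM). Src rose most (log2 change 2.29, SE 0.17, adjusted p = 2.9e-04 in limma), the B cell linker Blnk rose (1.11, adjusted p = 4.1e-04 in limma), and Pik3cd, a PI3-kinase subunit, fell (-1.10, adjusted p = 0.0011 in limma). The 15 calls became 8 without vehicle library 1, 2 or 3 and 9 without nanoparticle library 2.

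Of 9 tested phosphatases, Dok proteins and the related genes Csk and Ptprc, 1 rose and 1 fell. Inpp5d (SHIP-1), the lipid phosphatase that ITIMs recruit, was at 24.2, 24.9 and 23.7 FPKM in vehicle and 11.2, 9.53 and 10.5 FPKM with nanoparticles (log2 change -1.15, SE 0.10, adjusted p = 4.7e-04 in limma). Ptpn6 was at 53.1, 57.8 and 55.5 FPKM in vehicle and 30.9, 59.1 and 63.2 FPKM with nanoparticles, library 1 again the lowest (log2 change -0.18, adjusted p = 0.654 in limma, and 0.14 without library 1). Ptpn11 was at 15.2, 15.3 and 15.9 FPKM in vehicle and 16.7, 14.3 and 12.8 FPKM with nanoparticles (log2 change -0.09, adjusted p = 0.619 in limma). It was called lower without library 1 (-0.18, adjusted p = 0.0494 in limma) and with either alternative scaling. Dok1, an adaptor that dampens kinase signals, rose (log2 change 0.85, adjusted p = 0.0411 in limma), a call lost without each vehicle library and without nanoparticle library 2 or 3 (adjusted p = 0.0953 to 0.124 in limma) and with either alternative scaling (0.119 each). The list had 1 call without each vehicle library or nanoparticle library 2, 8 without nanoparticle library 1, and 0 higher with 6 or 7 lower under the alternative scalings. Of all tested genes, 64.8% were called without nanoparticle library 1, and 44.1% and 48.6% under the alternative scalings.

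Ligands and sheddases went both ways, with 4 higher and 3 lower of 9 tested (2 and 3 with either alternative scaling). Cd47, the ligand of SIRPα, was at 14.1, 14.2 and 14.1 FPKM in vehicle and 53.3, 41.0 and 42.3 FPKM with nanoparticles (log2 change 1.61, SE 0.13, adjusted p = 3.3e-04 in limma). Spn, which encodes the sialic acid-rich protein CD43 that Siglec-1 binds, was at 11.001, 11.8 and 12.9 FPKM in vehicle and 0.249, 1.59 and 1.76 FPKM with nanoparticles (log2 change -2.63, SE 0.31, adjusted p = 0.0014 in limma). Adam10, a protease that sheds TREM2, fell from 30.2 ± 1.52 to 14.0 ± 1.4997 FPKM (SD, n = 3 each, adjusted p = 9.8e-04 in limma). Genes of sialic acid synthesis and removal, which make and clear the ligands of the Siglecs, held 3 higher and 4 lower of 14 tested (2 and 4, or 1 and 7, under the alternative scalings). St6gal1, the α2,6-sialyltransferase, was at 10.5, 10.7 and 11.2 FPKM in vehicle and 3.75, 2.45 and 2.74 FPKM with nanoparticles (log2 change -1.58, SE 0.14, adjusted p = 5.0e-04 in limma). The α2,3-sialyltransferase St3gal3 rose from 7.74 ± 0.554 to 23.1 ± 5.16 FPKM (SD, n = 3 each, adjusted p = 0.0017 in limma), and the sialidase Neu1 rose from 25.4 ± 1.23 to 41.4 ± 3.79 FPKM (SD, n = 3 each, adjusted p = 0.0047 in limma, and 0.0829 with an equal sum of FPKM). The 7 calls of the sialic acid list became 3, 4 and 3 without vehicle libraries 1, 2 and 3 and 4 without nanoparticle library 2. They became 11 without nanoparticle library 1, where 64.8% of all tested genes were called.

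Markers of cell types moved between the groups as well. Of 12 macrophage markers, all tested, 4 were higher and 5 lower with nanoparticles (3 and 5, or 1 and 6, under the alternative scalings). Cd14, Adgre1, Cd68 and Fcgr1 were the higher ones. The list summed to 1215 to 1349 FPKM in vehicle and 1519.8 to 1883 FPKM with nanoparticles. Such sums are on the deposited scale. On it, all genes together summed to 321728 to 328384 FPKM in vehicle and 400186 to 491404 FPKM with nanoparticles. Of 12 dendritic cell markers 9 were tested, 1 higher and 5 lower, with sums of 539 to 543 and 335 to 482 FPKM. The mast cell and basophil list summed to 1.55 to 2.90 FPKM in vehicle and 8.94 to 25.3 FPKM with nanoparticles, through Hdc. The part of cell composition in the changes of the receptors was not tested.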

How the data were processed

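RNA sequencing values of 6 libraries, 3 vehicle and 3 nanoparticle, were used, grouped by sample title. The authors deposited 2 tables whose 140388 values were identical. The deposited values name no unit and were read as FPKM because, multiplied by the merged exon length (GENCODE M21), 95.8% to 96.1% of values above 0 became whole reads (within 0.01 of a read) at 1 scale per library. STAR 2.5 and HTSeq are among the tools named, and the builds mm10 and hg19 are both listed for these mouse samples, per the submitters' processing notes. Strand and handling of shared reads are not given in the sources used here. Library totals of 17327042 to 22012346 reads set the counting error.

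limma 3.58.1 in R 4.3.3 was fitted (group term, eBayes with trend) to log2(FPKM + 1) of genes reaching 1 FPKM in 3 or more libraries, with Benjamini-Hochberg adjustment over all of them. The code was tested on simulated data. Ratios were compared with exact permutation tests. Promoters came from RefSeq (GRCm38.p6). Alternatives were pseudocount, filter, scaling, trend, replicate block, leaving out each library and, added after seeing the data, limma-voom on recovered reads. No replicate pair was alike within sampling noise (chi-square per degree of freedom 2.88 to 232). Members and lists were chosen with earlier results of these data known. Genes named from the lists were up to 3 per list with the smallest adjusted p and separate groups, plus direct partners of the receptors and, for the member with the largest rise and fall, the 3 genes with the nearest profile. Of the listed genes, 12 did not match a name in the table.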

Additional observations from a re-analysis of the deposited data

How the results depend on the processing

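Of the 10 genes, Cd300a and Siglece kept their calls in every alternative that tested them, and Siglec1 and Cd300lf were called in none. Siglece passed the main filter only through the nanoparticle libraries, where it was high. The number called was 4 and became 7 without nanoparticle library 1 (range 3 to 7 over the fits that left out 1 library). Higher calls were 2, and 1 with a filter of 5 FPKM (which leaves out Siglece, Siglec1 and Trem1), with an equal sum of FPKM or with total reads (2 to 4 when leaving out 1 library). Lower calls were 2, 1 with no filter and 4 with an equal sum of FPKM (1 to 3 when leaving out 1 library). The 49 calls of the surrounding lists became 27 to 74 when leaving out 1 library, the 28 higher 15 to 36, and the 21 lower 12 to 38. With an equal sum of FPKM these lists gave 11 higher and 41 lower, with total reads 15 and 35, and with no filter 13 lower. Signs turned for Sirpa (-0.29 with an equal sum of FPKM, -0.17 with total reads), Cd300lf (-0.35 and -0.23, and -0.0754 to 0.20 when leaving out 1 library), and, without nanoparticle library 1, Trem2 (0.0204), Tyrobp (0.21) and Ptpn6 (0.14), whose lowest values over these fits were -0.56, -0.38 and -0.36. The log2 difference of Trem1 over Trem2 was -0.0106 with a pseudocount of 0.1, and -0.40 to 0.28 when leaving out 1 library, and that of Cd300lb over Cd300a was -0.56 to 0.0019. Apart from the scalings and the choice of tested genes, the cause of these moves was not tested. With a replicate block the 10 genes kept the same 4 calls, the lists gave 13 lower calls in place of 21, and the CD300 cluster gave 3 in place of 5, without Cd300ld (adjusted p = 0.0533 in limma) and Cd300ld3 (0.0686). Same-numbered libraries did not all deviate together (r of 0.07, 0.11 and -0.06), and different-numbered libraries gave r of -0.13 to 0.11. With 3 libraries per group these values cannot show whether the numbers pair the libraries. For the ratios the replicate block gave the same log2 differences, -1.72 for Cd300lb over Cd300lf among them. A block cannot change these differences, since each holds a library of each group. Counting limits precision most for Siglece, with 28 to 49 reads in vehicle.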

Other observations

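Genes whose profiles over the 6 libraries lay closest to the called members were looked for by the Euclidean distance between log2(FPKM + 1) values, each centred on its own mean. For Cd300lb, the largest fall, these were Tspan14, a tetraspanin, with a distance of 0.14, Plau, the urokinase plasminogen activator, with 0.18, and Tmem273 with 0.23. Plau was at 304, 286 and 276 FPKM in vehicle and 41.8, 136 and 148 FPKM with nanoparticles, and Tspan14 at 43.9, 40.8 and 40.5 FPKM and 5.85, 19.4 and 21.5 FPKM. Like Cd300lb, each was lowest in nanoparticle library 1. For Siglece, the largest rise among called members, the nearest were Dnmt3l (0.34), Clec2d (0.34) and Gm36738 (0.35). Clec2d, a C-type lectin-like ligand of an NK cell receptor, was at 28.2, 26.7 and 27.8 FPKM in vehicle and 54.5, 64.1 and 84.8 FPKM with nanoparticles, highest in library 3 as Siglece was. Distances over 6 libraries describe likeness and say nothing of shared function or control.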
